A study of Mus musculus with 25 samples.

Results

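Scarb1, Fdx1, Fdxr, Star, Abca1 and Abcg1 are genes of cholesterol uptake, mitochondrial electron supply and cholesterol transport, and they were followed here in the mouse pituitary. They were taken from the table by gene symbol, with the row of highest mean wherever a symbol had several. Each symbol had 1 row, which gave 6 genes of the 47069 in the table, and 6 of 6 were above the floor for testing. Scarb1 and Fdx1 were chosen on measured values, because both had passed the GnRH comparison in females and in males. Their GnRH differences are therefore a description and carry no test. The other 4 genes were chosen for their place in the same pathway, with earlier results of these data known.

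The tissue was the pituitary of hypogonadal mice (hpg/hpg), in which the Gnrh1 gene is partly deleted and no gonadotropin-releasing hormone (GnRH) is made. All 25 animals had this genotype, including the controls, so no group shows a pituitary with its own GnRH supply. Polyadenylated RNA was sequenced from 6 GnRH females, 5 placebo females, 8 GnRH males and 6 placebo males, 1 library per animal. The series' design text gives 5 to 7 replicates per condition, whereas 8 animals are labelled as GnRH males, and grouping went by the labels. GnRH animals had 1 µg GnRH and placebo animals had saline, given intraperitoneally each day for 10 days, and tissue was taken 1 h after the final dose. The labels used here give no age. Values are regularized log2 levels, which the authors scaled across libraries and pulled towards the mean of each gene, so a difference of 1 is a doubling on that scale and differences of low genes are understated. The values are not divided by gene length, and levels are not compared between genes. The depth of the libraries is unknown. Animals carry the numbers of the labels, 1 to 25. Among the markers of hormone cells listed, all 6 of gonadotropes, 2 of somatotropes, 2 of lactotropes, 3 of thyrotropes and 3 of corticotropes were above the floor, as the tissue label requires. Fshb, the beta subunit of follicle-stimulating hormone and the known response gene of GnRH, was 4.20-fold higher with GnRH in females and 6.81-fold higher in males. GnRH males 18 and 21 stood apart in an immediate early gene, with Nr4a3 at 10.93 and 11.22 against 9.52 to 9.84 in the other GnRH males, and male results are given without both where that changes them.

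Scarb1 encodes scavenger receptor class B type I, a receptor on the cell surface that takes cholesteryl esters out of high-density lipoprotein without taking in the particle. Fdx1 is the mitochondrial ferredoxin that hands electrons from its reductase, Fdxr, to mitochondrial P450 enzymes, and in human cells it also serves protein lipoylation. Star carries cholesterol to the inner mitochondrial membrane, and the transporters Abca1 and Abcg1 move cholesterol out of cells onto lipoproteins. In steroid-making tissues such as the adrenal cortex and the gonads, pituitary hormones raise Scarb1, Star and Fdx1 together. The pituitary is not a classical steroid-making organ, so here the genes are followed in the tissue that sends the signal.

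Scarb1, the high-density lipoprotein receptor, was higher with GnRH in every animal of both sexes. It is on chromosome 5 (chr5:125277087-125341094, minus strand, GRCm38.p6). In females its level was 10.71, 10.65, 11.06, 10.96, 10.16 and 10.88 in GnRH animals 6 to 11, against 9.84, 9.73, 9.99, 10.15 and 9.92 in placebo animals 1 to 5. GnRH animal 10, at 10.16, lay just above the highest placebo female at 10.15, and the other 5 GnRH females lay well clear. In males its level was 11.02, 10.21, 10.71, 10.80, 10.61, 10.73, 10.78 and 11.02 in GnRH animals 18 to 25, against 9.80, 10.04, 9.97, 9.71, 9.89 and 9.81 in placebo animals 12 to 17. GnRH animal 19 was the lowest treated male, still above all 6 placebo males. The mean was 10.74 ± 0.32 (SD, n = 6) in GnRH females and 9.93 ± 0.16 (SD, n = 5) in placebo females, a difference of 0.81 (SE 0.13, 95% interval 0.55 to 1.07), or 1.75-fold. It was 10.74 ± 0.26 (SD, n = 8) in GnRH males and 9.87 ± 0.12 (SD, n = 6) in placebo males, a difference of 0.87 (SE 0.11, interval 0.63 to 1.10), or 1.82-fold. Among the 19141 genes tested, ordered from the most positive difference down, Scarb1 was number 19 in females and number 21 in males. The gene shares 2764 bases with Gm42633 on the same strand, whose row stayed at 2.04 to 2.30 in all libraries, below the floor of 3 for testing.

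Fdx1, the ferredoxin, showed the same order of animals by treatment with a smaller difference. It is on chromosome 9 (chr9:51943023-51963602, minus strand). In females its level was 9.02, 8.72, 8.89, 8.47, 8.51 and 9.11 in GnRH animals 6 to 11, against 8.14, 8.42, 8.23, 8.22 and 8.36 in placebo animals 1 to 5. GnRH animals 9 and 10 sat closest to the highest placebo female. In males its level was 9.07, 8.51, 9.11, 8.78, 8.75, 8.88, 8.80 and 8.79 in GnRH animals 18 to 25, against 8.23, 8.36, 8.44, 8.47, 8.25 and 8.14 in placebo animals 12 to 17. No GnRH male overlapped the placebo males, and animal 19 was again the lowest treated one. The mean was 8.79 ± 0.27 (SD, n = 6) in GnRH females and 8.27 ± 0.11 (SD, n = 5) in placebo females, a difference of 0.51 (SE 0.11, interval 0.29 to 0.73), or 1.43-fold. It was 8.84 ± 0.19 (SD, n = 8) in GnRH males and 8.31 ± 0.13 (SD, n = 6) in placebo males, a difference of 0.52 (SE 0.095, interval 0.33 to 0.72), or 1.44-fold. By difference, Fdx1 was number 59 in females and number 69 in males.

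By limma with Benjamini-Hochberg adjustment over all genes tested and a threshold of 0.05, 19 genes passed in females, which is 0.0993% of those tested, and 95 in males, which is 0.496%. Of the 6 genes followed here 2 passed in each sex, Scarb1 and Fdx1, which is how they were chosen, and nothing is read from that count. They were among 15 genes that passed in both sexes in the same direction. Ordered by the female difference, Scarb1 was number 7 of these 15, between Tnfrsf12a at 0.81 and Timp1 at 0.79, and Fdx1 was number 13, between Vegfa at 0.52 and Arrb2 at 0.49. In females Fdx1, at 0.51, was itself the last gene inside the threshold, and Dot1l, at 0.36, was the first outside. In males Agpat4, at 0.23, was the last inside and Midn, at 0.50, the first outside. A wider count needs no model. In females 101 genes, 0.528% of those tested, had every GnRH animal above every placebo animal, and in males 66 genes, 0.345%, did so. These libraries are of whole tissue, in which more cells of a type and more RNA per cell cannot be told apart.

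**Figure D1:**
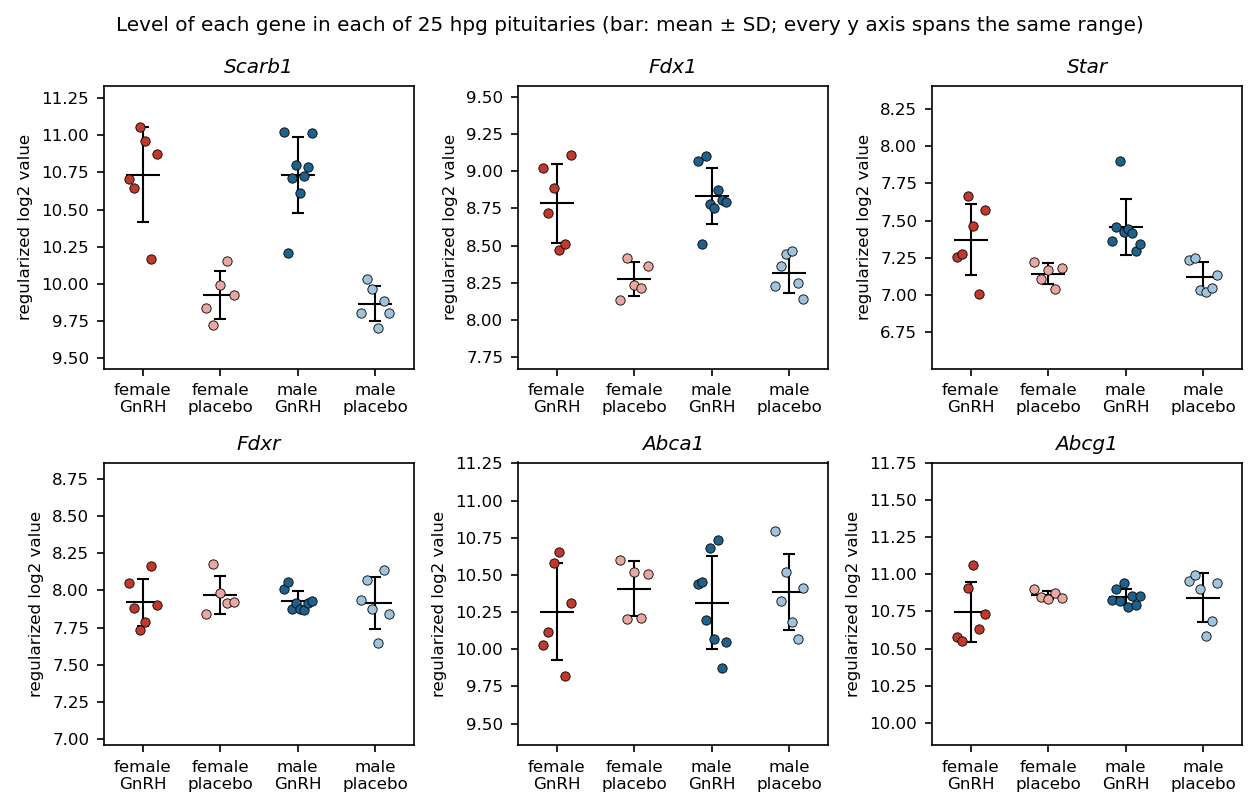
Regularized log2 level (vertical axis) of each of the 6 genes in every animal, by sex, with GnRH left of placebo; each point is 1 animal and each bar a group mean with its SD. Scarb1 and Fdx1 separate by treatment in both sexes, Star separates in males (7.30 to 7.90 with GnRH, 7.02 to 7.25 with placebo), and Fdxr, Abca1 and Abcg1 overlap.

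Fdxr, the reductase that feeds electrons to Fdx1, did not pass in either sex. The gene is on chromosome 11 (chr11:115268024-115277101, minus strand). Its level in GnRH females had a lowest value of 7.74, a median of 7.89 and a highest value of 8.16, against 7.84, 8.18, 7.99, 7.92 and 7.92 in placebo females 1 to 5. In males the lowest, median and highest levels were 7.87, 7.92 and 8.06 with GnRH and 7.64, 7.91 and 8.14 with placebo. The placebo range of males enclosed all 8 treated males. The difference was -0.05 (SE 0.081, interval -0.22 to 0.12, adjusted p = 0.863) in females and 0.01 (SE 0.072, interval -0.14 to 0.16, adjusted p = 0.999) in males. The difference between Fdxr and Fdx1 was not tested.

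The stretch around the transcription start is shown for this pair because the reductase hands its electrons to the carrier. Promoter windows of 300 bases (250 before to 50 after the start, RefSeq, GRCm38.p6) were at hand for 3 of the 6 genes, Fdx1, Fdxr and Abca1. Capitals mark each match to the GC box GGGCGG, read on both strands, so that a match on the other strand appears as CCGCCC. The Fdx1 window is chr9:51963553-51963852 and the Fdxr window chr11:115276920-115277219, both on the minus strand and written 5′ to 3′.
Fdx1: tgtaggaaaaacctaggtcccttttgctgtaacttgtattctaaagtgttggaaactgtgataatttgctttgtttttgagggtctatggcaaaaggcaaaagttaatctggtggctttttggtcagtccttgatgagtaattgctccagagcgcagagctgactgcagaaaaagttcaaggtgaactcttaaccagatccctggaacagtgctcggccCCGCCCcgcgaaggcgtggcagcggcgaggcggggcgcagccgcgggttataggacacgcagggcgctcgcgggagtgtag
Fdxr: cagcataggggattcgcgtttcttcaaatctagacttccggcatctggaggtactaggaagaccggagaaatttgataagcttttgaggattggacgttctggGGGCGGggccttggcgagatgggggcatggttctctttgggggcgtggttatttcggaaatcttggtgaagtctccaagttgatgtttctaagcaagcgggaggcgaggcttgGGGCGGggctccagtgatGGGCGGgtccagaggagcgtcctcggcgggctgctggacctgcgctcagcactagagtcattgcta
The Fdx1 window held 1 GC box, its first printed base 31 bases before the start, on the strand opposite to the gene. The Fdxr window held 3, at 147, 34 and 16 bases before the start, on the gene's own strand. The start meant here is the one each window was built on. For Fdxr and Abca1 it lies inside the span given for the gene, so bases counted as before the start can fall within that span. For Fdx1 it is the upstream end of the span. GC made up 52% of the Fdx1 window and 56.3% of the Fdxr window. A GC box was present in 35.7% of the 32851 windows of the same length, so it is a common feature. Neither window, nor that of Abca1, held the SF-1 half-site AAGGTCA (in 4.72% of all windows), the AP-1 site TGANTCA (7.81%) or the CRE half-site TGACG (20.8%), each sought on both strands. The TATA box TATAAA (13.6%) was in the Abca1 window only, which also held 2 GC boxes, and no matches overlapped. Only these letters in these windows were searched, and sites elsewhere were not.

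Star, which delivers cholesterol to the inner mitochondrial membrane, was not chosen on its GnRH difference as Scarb1 and Fdx1 were. Its choice was still made with earlier results of these data known. It lies on chromosome 8 (chr8:25808474-25815982, plus strand). In females its level was 7.25, 7.28, 7.67, 7.46, 7.01 and 7.57 in GnRH animals 6 to 11, against 7.22, 7.10, 7.16, 7.04 and 7.18 in placebo animals 1 to 5. Of the GnRH females 5 of 6 lay above every placebo female, and animal 10 lay below all of them. In males its level was 7.36, 7.46, 7.90, 7.42, 7.45, 7.41, 7.30 and 7.34 in GnRH animals 18 to 25, against 7.24, 7.25, 7.03, 7.02, 7.05 and 7.13 in placebo animals 12 to 17. All 8 treated males were above all 6 placebo males, as in 0.345% of all genes tested, with animal 20 far above the rest. The mean was 7.37 ± 0.24 (SD, n = 6) in GnRH females and 7.14 ± 0.072 (SD, n = 5) in placebo females, a difference of 0.23 (SE 0.099, interval 0.03 to 0.43, adjusted p = 0.467). It was 7.46 ± 0.19 (SD, n = 8) in GnRH males and 7.12 ± 0.10 (SD, n = 6) in placebo males, a difference of 0.34 (SE 0.088, interval 0.16 to 0.52, adjusted p = 0.0946). Neither passed the threshold, and the fold was 1.17 in females and 1.26 in males. The mean of the female and male differences, a comparison chosen after the values were seen, was 0.28 (SE 0.066, interval 0.15 to 0.42, adjusted p = 0.0200, limma), or 1.22-fold, and Star was higher than the placebo mean in 5 of 6 GnRH females and 8 of 8 GnRH males. In that comparison 327 genes passed, 1.71% of those tested, and 3 of the 6 followed here did so, Star beside the already chosen Scarb1 and Fdx1. The male difference passed only when libraries were weighted by their spread (0.34, adjusted p = 0.0401), over a range of adjusted p of 0.0748 to 0.245 when single animals were left out. Markers of the adrenal cortex, where Star is abundant, were 0 of 6 above the floor, with Cyp11b1, Cyp11b2 and Mc2r listed at 0 in all libraries.

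Abca1, which loads cholesterol onto lipid-poor apolipoprotein A-I, overlapped between treatments in both sexes. It lies on chromosome 4 (chr4:53030789-53159988, minus strand). In GnRH females the lowest, median and highest levels were 9.82, 10.21 and 10.65, against 10.60, 10.21, 10.52, 10.21 and 10.50 in placebo females 1 to 5. In males they were 9.88, 10.32 and 10.73 with GnRH and 10.07, 10.37 and 10.79 with placebo. The difference was -0.16 (SE 0.15, interval -0.47 to 0.16, adjusted p = 0.762) in females and -0.07 (SE 0.14, interval -0.35 to 0.21, adjusted p = 0.999) in males. Neither interval excludes 0, and in females a level lower by up to 0.47 is within it.

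Abcg1, which passes cholesterol to high-density lipoprotein, also overlapped. It lies on chromosome 17 (chr17:31057694-31117984, plus strand). Its level in GnRH females 6 to 11 was 10.58, 10.55, 10.91, 11.06, 10.63 and 10.74, against 10.90, 10.85, 10.83, 10.87 and 10.84 in placebo females 1 to 5. The placebo females spanned a narrow band, with 4 of the 6 GnRH females below it and 2 above it. The SD was 0.20 (n = 6) in GnRH females and 0.026 (n = 5) in placebo females, and the order was the other way round in males, with 0.053 (n = 8) with GnRH and 0.17 (n = 6) with placebo. The spreads were not tested. The difference was -0.11 (SE 0.077, interval -0.27 to 0.04, adjusted p = 0.636) in females and 0.00 (SE 0.068, interval -0.14 to 0.14, adjusted p = 0.999) in males, where its sign turned under some settings. The gene shares 128 bases with the ribosomal RNA gene Gm25447, whose row averaged -2.11.

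**Figure D2:**
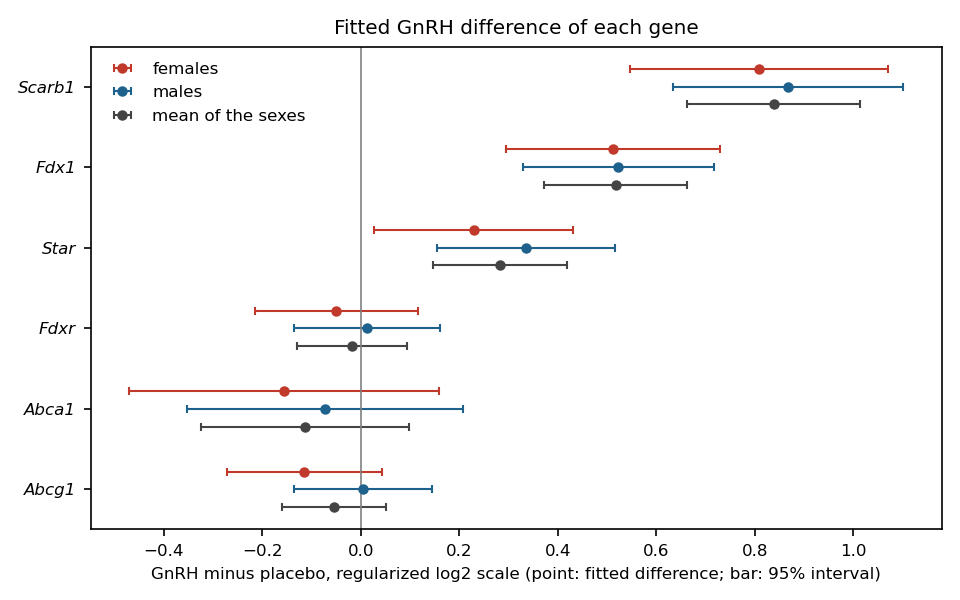
GnRH minus placebo difference on the regularized log2 scale (horizontal axis) of each of the 6 genes in females, in males and as the mean of the sexes; points are estimates and lines 95% intervals. Scarb1 (0.81 and 0.87) and Fdx1 (0.51 and 0.52) lie far to the right, Star (0.23 and 0.34) is nearer to 0, and the intervals of Fdxr, Abca1 and Abcg1 include 0.

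Whether the GnRH difference depended on sex was asked with the interaction in the same model. Scarb1 and Fdx1 were chosen for passing in both sexes, which disfavours genes with a large sex difference. For them the interaction is therefore not independent of the choice. The male minus female effect was 0.06 (SE 0.17, interval -0.29 to 0.41) for Scarb1 and 0.01 (SE 0.14, interval -0.28 to 0.30) for Fdx1. It was 0.06 (interval -0.16 to 0.28) for Fdxr and 0.11 (interval -0.16 to 0.38) for Star. For the exporters it was 0.08 (interval -0.34 to 0.51) for Abca1 and 0.12 (interval -0.09 to 0.33) for Abcg1. None of the 6 passed, each with an adjusted p of 0.999 by limma. Over all genes tested 0 passed, which is 0%, and 529 had an unadjusted p under 0.05. The intervals reach 0.41 for Scarb1 and 0.30 for Fdx1, so equal effects in the sexes were not shown.

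Levels were also compared between the sexes within a treatment. Within placebo the male minus female difference was -0.06 for Scarb1, 0.04 for Fdx1, -0.05 for Fdxr, -0.02 for Star, -0.02 for Abca1 and -0.02 for Abcg1, each with an adjusted p of 0.999 by limma. Over all genes 0.047% passed in that comparison. With GnRH the difference was 0.00 for Scarb1, 0.05 for Fdx1, 0.01 for Fdxr, 0.08 for Star, 0.06 for Abca1 and 0.10 for Abcg1, with adjusted p of 0.931 to 1, and 0.0522% of all genes passed. None of the 6 genes passed in either.

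Animals within a group varied, and the relation of the genes across animals was measured on values with the group means removed, over 17 pairs, with permutation of animals within groups. Abca1 and Abcg1, both known targets of the liver X receptors, varied together over the 25 animals (Pearson r = 0.672, permutation p = 0.00028, adjusted p = 0.00476 over the 17 pairs; Spearman rho = 0.695, permutation p = 0.00029, adjusted p = 0.00493). The r was 0.722 within GnRH animals and 0.587 within placebo animals, 0.793 in females and 0.579 in males, and 0.675 without animals 24 and 10, which lay farthest from the median of Abca1. The sign was the same in each of these subsets. Why Abca1 and Abcg1 varied together was not tested. Star followed Abca1 with a rho of 0.587 (permutation p = 0.00539, adjusted p = 0.0458) but an r of 0.463 (permutation p = 0.0469, adjusted p = 0.243), and the r was 0.861 in females and 0.14 in males. Scarb1 and Fdx1, which shared their treatment difference, had an r of 0.402 (permutation p = 0.114, adjusted p = 0.243) and a rho of 0.328 (permutation p = 0.146, adjusted p = 0.414) within groups. Without animals 10 and 19, which lay farthest from the median of Scarb1, their r was 0.0219. It was 0.512 within GnRH animals and -0.136 within placebo animals, 0.271 in females and 0.557 in males. Neither relation with Fshb passed, with an r of 0.0381 for Scarb1 (rho -0.223, adjusted permutation p = 0.876 and 0.548) and 0.09 for Fdx1 (rho 0.0177, adjusted permutation p = 0.798 and 0.969). For Scarb1 with Fshb the sign differed by treatment, with an r of 0.246 within GnRH animals and -0.689 within placebo animals. Without animals 10 and 19 it was -0.394. For Fdx1 with Fshb the r was 0.129 within GnRH animals and -0.0277 within placebo animals. These subsets were not tested. None of the other pairs passed the adjustment by either measure.

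**Figure D3:**
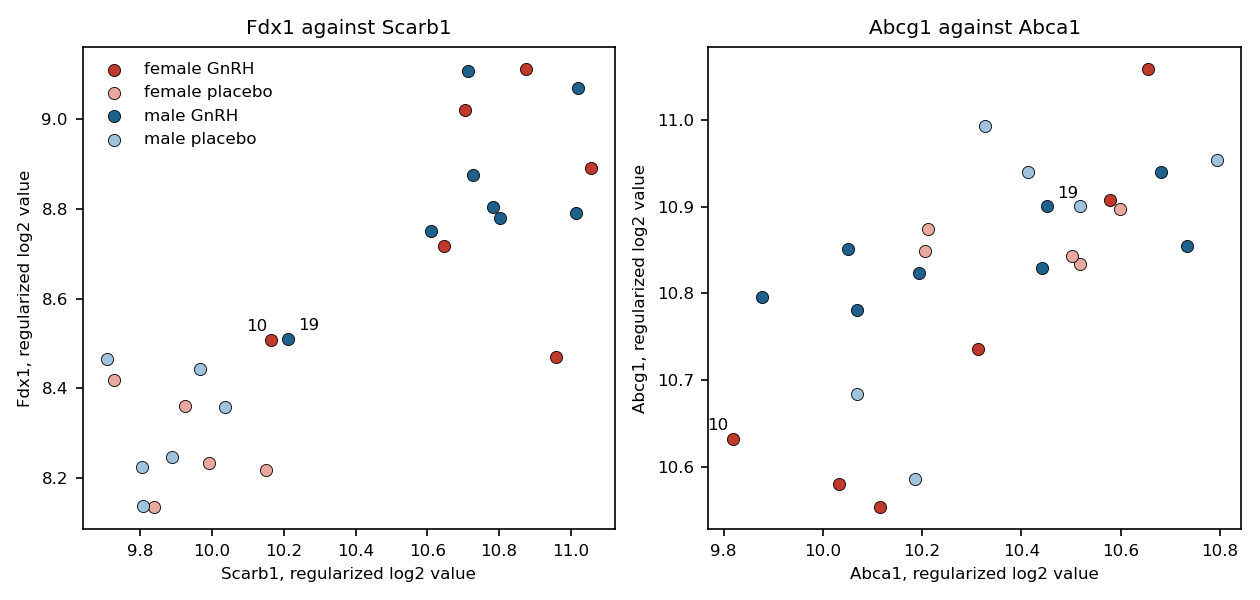
Regularized log2 levels, Fdx1 against Scarb1 (left) and Abcg1 against Abca1 (right); each point is 1 of 25 animals, coloured by sex and treatment, and animals 10 and 19 carry their numbers. The GnRH animals fill the upper right of the left panel, with animals 10 and 19 nearest to the placebo animals, whereas treatments mix in the right panel, where both levels climb together (r = 0.672 with group means removed).

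The genes most like Scarb1 over the 25 libraries, among 14881 candidates and by Pearson r as a description, were Nefm (0.951) and Nefl (0.927), both neurofilament subunits, Serpinb1a (0.926), a protease inhibitor, Dot1l (0.925), a histone methyltransferase, and Bcl6b (0.91). Group differences enter these r. With group means removed, the highest were Zfp703 (0.806), Nefm (0.794), Actg1 (0.786), Dot1l (0.778) and Apcdd1 (0.76), so Nefm and Dot1l were on both lists. The genes most like Fdx1 were Rheb (0.919), a small GTPase that activates mTORC1, Tnfrsf12a (0.91), a receptor of the TNF family, Timp1 (0.901), a metalloproteinase inhibitor, Pim1 (0.891), a kinase, and Slc4a11 (0.886). With group means removed they were Lef1 (0.788), Rheb (0.78), Tnfrsf12a (0.742), Mtf2 (0.741) and Pim1 (0.73), with 3 genes on both lists. No gene was among the 5 most like both Scarb1 and Fdx1. The libraries share their normalization, and these r carry no test.

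The wider cholesterol pathway was counted by lists. Over all genes tested the median difference was 0.00025 in females and -0.0022 in males, with 50.1% and 48.5% of genes above 0. Of 21 genes of uptake and intracellular transport, 20 were tested and 0 passed in either sex by limma, with medians of 0.01 in females and -0.02 in males. Scp2, a sterol carrier, differed by -0.11 in females and -0.09 in males (adjusted p = 0.449 and 0.608). Genes of sterol sensing, only some of which cells raise when sterol is short, had 8 of 9 differences below 0 in females. In males 6 of 9 were below 0, with medians of -0.06 in females and -0.09 in males and 0 that passed. Sqle, an enzyme of cholesterol synthesis, differed by -0.13 (adjusted p = 0.551) in females and -0.16 (adjusted p = 0.458) in males.

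In the ester store 1 gene passed in males. Soat1, the enzyme that esterifies cholesterol for storage, had levels of 10.83, 10.68, 11.41, 11.07, 10.37 and 10.89 in GnRH females, against 10.53, 10.29, 10.45, 10.41 and 10.58 in placebo females. In males they were 11.34, 10.70, 11.09, 11.23, 10.72, 10.94, 10.74 and 11.06 with GnRH, against 10.54, 10.42, 10.49, 10.37, 10.37 and 10.63 with placebo. All 8 treated males exceeded all 6 placebo males, as in 0.345% of all genes tested. Of the treated females 5 of 6 exceeded every placebo female, animal 10 being the exception. Soat1 rose by 0.51 (SE 0.11, adjusted p = 0.0314, limma) in males, and differed by 0.42 (SE 0.13, adjusted p = 0.245) in females. The male call was lost in 9 of 14 fits that left out 1 animal (placebo males 12 to 16 and GnRH males 18, 20, 21 and 25, adjusted p of up to 0.0861), with no floor on the mean (0.0994) and without GnRH males 18 and 21, with 0.40 and an adjusted p of 0.207. Males 18 and 21 had the highest Soat1 levels among the GnRH males, so leaving both out must lower the male difference. In females Soat1 passed without GnRH animal 10 (0.52, adjusted p = 0.0417). The mean of the sexes was 0.47 (adjusted p = 0.00197), in a comparison chosen after the values were seen. Soat1 was the only 1 of 6 genes of this list that passed in males, where 0.496% of all genes tested passed. In females 0 passed, against 0.0993% of all genes tested. Nceh1, which hydrolyses cholesteryl esters, differed by -0.18 in females and -0.17 in males (adjusted p = 0.547 and 0.748), and Plin2, a coat protein of lipid droplets, by -0.12 and 0.12 (adjusted p = 0.604 and 0.842).

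On the exit side, 0 of 9 genes of efflux and lipoproteins passed in either sex by limma, with medians of -0.03 in females and 0.0041 in males. Abcg4, a close relative of Abcg1, differed by -0.19 and -0.20 (adjusted p = 0.466 and 0.445) and Lcat, which esterifies cholesterol in lipoproteins, by 0.19 and 0.14 (adjusted p = 0.511 and 0.843). Of 11 liver X receptor genes and targets, 9 were tested and 0 passed, with medians of -0.0025 and -0.02. Arl4c differed by -0.32 (adjusted p = 0.356) in females and -0.23 (adjusted p = 0.650) in males, and Srebf1 by 0.02 (adjusted p = 0.970) and -0.24 (adjusted p = 0.573).

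Most genes of steroid synthesis were below the floor. Of 13 genes 5 were tested, and 0 passed in either sex by limma, while Star passed in the mean of the sexes. Cyp11a1, the enzyme that starts steroid synthesis from cholesterol and takes its electrons from Fdx1, averaged 1.88 and was below the floor. Cyp11b1 and Cyp11b2 were listed at 0. Por, which supplies electrons to the P450 enzymes of the endoplasmic reticulum, differed by 0.10 in females and 0.10 in males (adjusted p = 0.715 and 0.990). Of 6 mitochondrial P450 enzymes that ferredoxin feeds, 2 were tested and neither passed. Cyp27a1, which hydroxylates cholesterol at its side chain, had a mean of 9.66 ± 0.24 in GnRH females (SD, n = 6) and 9.32 ± 0.30 in placebo females (SD, n = 5). In males the mean was 9.80 ± 0.28 with GnRH (SD, n = 8) and 9.47 ± 0.30 with placebo (SD, n = 6). The differences were 0.34 (SE 0.15, adjusted p = 0.484) in females and 0.33 (SE 0.14, adjusted p = 0.575) in males. Cyp27b1, which activates vitamin D, differed by 0.11 and 0.06 (adjusted p = 0.542 and 0.999).

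Genes of the other known uses of ferredoxin were also counted. Of 14 genes of iron-sulfur cluster assembly, 0 passed in either sex by limma, with medians of 0.0068 in females and -0.0066 in males. Fdx2, the second mitochondrial ferredoxin, listed in the table under its older symbol, differed by 0.0030 (adjusted p = 0.992) in females and -0.03 (adjusted p = 0.999) in males. Hscb, a chaperone of that pathway, differed by -0.03 and -0.12 (adjusted p = 0.894 and 0.781), and Hspa9, its partner chaperone, by -0.13 and -0.04 (adjusted p = 0.591 and 0.999). Of 8 genes of lipoylation 0 passed, with medians of -0.02 and -0.04. Dlat, a lipoylated subunit of pyruvate dehydrogenase, differed by -0.15 and -0.05 (adjusted p = 0.529 and 0.999), and Dbt, a lipoylated subunit of the branched-chain dehydrogenase, by -0.12 and -0.13 (adjusted p = 0.593 and 0.778).

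Among 12 regulators of steroidogenic genes, 11 were tested. None passed in females, where 0.0993% of all genes tested passed. In males 1 rose and 1 fell, where 0.496% of all genes tested passed. Nr4a3, an immediate early nuclear receptor, rose by 1.44 (SE 0.28, adjusted p = 0.0108) in males, with a mean of 10.03 ± 0.67 with GnRH (SD, n = 8) and 8.59 ± 0.48 with placebo (SD, n = 6). GnRH males 18 and 21 had the highest Nr4a3 levels, so leaving both out must lower its difference, which was then 1.09 (adjusted p = 0.0522). With no floor the adjusted p was 0.0510, and in females the difference was 1.00 (adjusted p = 0.271). The male call was kept in all 14 fits that left out 1 animal. The mean of the sexes for Nr4a3, chosen after the values were seen, was 1.22 (adjusted p = 0.00109, limma). It passed in all 25 fits that left out 1 animal (adjusted p of up to 0.00356). Gata2, a transcription factor that gonadotropes and thyrotropes use, fell by 0.50 (SE 0.11, adjusted p = 0.0216) in males, with a mean of 10.43 ± 0.26 with GnRH (SD, n = 8) and 10.93 ± 0.19 with placebo (SD, n = 6). Its call was lost in 4 of 14 fits that left out 1 animal (placebo males 13, 14 and 17 and GnRH male 18, adjusted p of up to 0.0921). It was also lost with no floor (0.0721) and without GnRH males 18 and 21, with -0.37 and an adjusted p of 0.116. In females the difference was -0.49 (adjusted p = 0.120), or -0.54 (adjusted p = 0.0417) without GnRH animal 10. The mean of the sexes for Gata2, chosen after the values were seen, was -0.49 (adjusted p = 0.000638, limma). It passed in all 25 fits that left out 1 animal (adjusted p of up to 0.00198). Nr5a1, which encodes SF-1, the nuclear receptor known to drive Scarb1 and Star in steroid-making cells, differed by -0.36 (SE 0.14, adjusted p = 0.394) in females and -0.40 (SE 0.12, adjusted p = 0.189) in males. Its mean was 9.63 ± 0.22 in GnRH females (SD, n = 6) and 9.99 ± 0.31 in placebo females (SD, n = 5), and 9.60 ± 0.25 in GnRH males (SD, n = 8) and 10.00 ± 0.21 in placebo males (SD, n = 6). The mean of the sexes, chosen after the values were seen, fell by 0.38 (adjusted p = 0.0222, limma), and without placebo female 4 it was -0.35 with an adjusted p of 0.0571, while with no floor the adjusted p was 0.0645. In males alone Nr5a1 passed without GnRH animal 19 (-0.47, adjusted p = 0.0423). Crem, a cAMP-responsive factor, differed by 0.07 and 0.40 (adjusted p = 0.880 and 0.179).

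**Figure D4:**
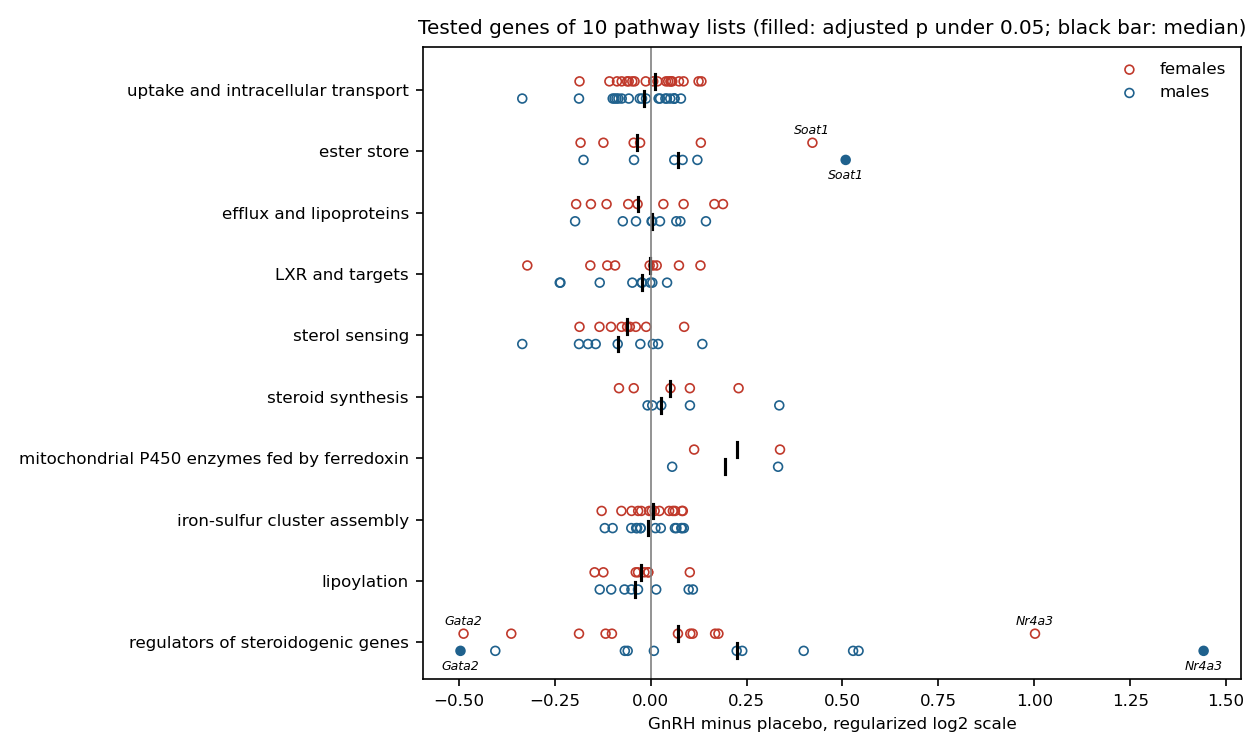
GnRH minus placebo difference on the regularized log2 scale (horizontal axis) of each tested gene of the 10 pathway lists (vertical axis), in females and males; filled points passed an adjusted p of 0.05 and black bars are list medians. Filled points are Soat1, Nr4a3 and Gata2, all in males, while most genes lie near 0.

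Markers of other cell types were followed beside these results. Summed levels of the 6 gonadotrope markers were 63.4 to 64.8 in GnRH females and 59.4 to 62.1 in placebo females, and 62.6 to 65.6 in GnRH males and 59.5 to 61.3 in placebo males. In both sexes the sums with GnRH lay above all sums with placebo. The sums include Fshb, the known GnRH response gene, and were not made without it, so their separation is not read as a separate result. Fshb gave the largest part of that shift, with differences of 2.07 in females and 2.77 in males. Of the 6 markers 1 passed in females (Fshb), where 0.0993% of all genes passed. In males 2 passed (Fshb and Gnrhr), where 0.496% of all genes passed. The markers did not all go one way: Nr5a1 (-0.36 and -0.40, as above) and Foxl2, a transcription factor of gonadotropes, were below 0 in both sexes. Foxl2 differed by -0.39 in females (adjusted p = 0.180) and -0.21 in males (adjusted p = 0.689), and its mean of the sexes, chosen after the values were seen, fell by 0.30 (adjusted p = 0.0230, limma). That call was lost without placebo female 1 (-0.28, adjusted p = 0.0543) or 4 (-0.27, adjusted p = 0.0589), without GnRH males 18 and 21 (-0.26, adjusted p = 0.0540) and with no floor (adjusted p = 0.0543). In the same comparison 3 of the 6 gonadotrope markers were higher and 2 lower by limma, where 1.71% of all genes passed. The higher ones were Fshb, Gnrhr (0.66, adjusted p = 0.00109) and Lhb (0.38, adjusted p = 0.0141), and the lower ones Nr5a1 and Foxl2. The 8 endothelial markers, of a cell type that expresses Scarb1, had sums of 74.8 to 77.1 in GnRH females and 73.5 to 75.6 in placebo females, and 74.8 to 77.3 in GnRH males and 74.6 to 75.2 in placebo males. All 8 of their differences were above 0 in both sexes, against 50.1% of all genes in females and 48.5% in males. Their medians were 0.15 in females and 0.12 in males. Emcn passed in males by limma (0.27, adjusted p = 0.0416), where 0.496% of all genes passed. That call was lost in 9 of 14 fits that left out 1 animal (placebo males 12, 13, 14, 16 and 17 and GnRH males 18, 21, 22 and 25, adjusted p of up to 0.119). Without GnRH males 18 and 21 Emcn had 0.23 (adjusted p = 0.226), and its adjusted p was 0.0801 with no floor and 0.0594 with separate fits by sex. In the mean of the sexes, chosen after the values were seen, 2 of the 8 endothelial markers passed by limma, where 1.71% of all genes passed. They were Emcn (0.25, adjusted p = 0.00289) and Plvap (0.18, adjusted p = 0.0238). Emcn passed there in all 25 fits that left out 1 animal (adjusted p of up to 0.00846), and Plvap was not followed in those fits. The 8 macrophage markers, of a cell type that expresses Abca1 and Abcg1, had sums of 59.0 to 61.3 in GnRH females and 57.7 to 60.8 in placebo females, and 57.8 to 59.8 in GnRH males and 57.6 to 59.9 in placebo males, with 0 that passed by limma. The part of cell makeup in the differences of the 6 genes was not tested. Of the fat cell markers 0 of 3 were above the floor.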

How the data were processed

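Pituitary RNA of 25 hpg mice was analysed in 4 groups of sex and treatment, taken from the labels. The authors deposited regularized log2 values, as the name of their table says, scaled between libraries and shrunken before deposit. The submitters' processing notes name STAR, featureCounts and bcl2fastq with build mm10. Versions, annotation and strand setting are not given in the sources used. Reads of genes that overlap on the same strand cannot be told apart. No counts were analysed here, so depth is unknown and no counting interval was made. Of 47069 genes, 13765 were at 0 in all libraries. A floor of 3 on the mean left 19141 genes for testing. Library medians lay between 8.09 and 8.13, and correlations between libraries between 0.992 and 0.998. No batch is given in the sources used here.

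A single limma 3.58.1 model (R 4.3.3) with 1 mean per group, 21 residual degrees of freedom and a variance trend was fitted to all genes. All tests were two-sided, with Benjamini-Hochberg adjustment over all genes tested. Scripts were tested on simulated data. Relations between genes used 100000 two-sided permutations within groups (numpy 2.4.6, Python 3.11.15). Positions and promoters come from RefSeq (GRCm38.p6), and overlaps from GENCODE. Named genes were the 6 members and list genes past the threshold in either sex, plus up to 2 more per list by smallest p. The 5 genes most like Scarb1, the 5 most like Fdx1 and Fshb were also named. Emcn, Plvap, Gnrhr, Lhb, Foxl2, Fdx2 and the genes beside a threshold were added as values were seen. A gene that this rule names is not reported here. Members and lists were chosen with earlier results of these data known. Alternatives covered scaling, the floor, the variance model, library weights, separate fits by sex and left-out animals.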

Additional observations from a re-analysis of the deposited data

Results flagged for a closer look

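Star in GnRH male 20, at 7.90, stood apart from the other 7 GnRH males, the nearest of which was at 7.46. The gap was 0.733 of the group's range, above the critical ratio of 0.526 for 8 animals. Over the 24 groups of gene and treatment examined, chance alone gives about 1 such case in 20 groups. Without animal 20 the male Star difference was 0.27, and all 8 treated males, animal 20 included, lay above the placebo males.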

How the results depend on the processing

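The differences of Scarb1 and Fdx1 kept their sign under every setting run, with 0.74 to 0.92 for Scarb1 in females and 0.83 to 0.94 in males, and 0.45 to 0.58 and 0.48 to 0.57 for Fdx1, when single animals were left out. Star had 0.17 to 0.30 in females and 0.27 to 0.36 in males (mean of the sexes 0.25 to 0.32). The count of the 6 genes that passed in females was 1 with no floor, with no variance trend and with separate fits by sex, and 1 to 2 without single animals. Fdx1 was the gene lost, without any single female other than GnRH animals 9 and 10. With no floor, 7 genes passed in females and 42 in males. With library weights 62, 239 and 942 passed in females, males and the mean of the sexes, and Star passed in males (0.34). Without GnRH males 18 and 21, 38 passed in males. Without single animals the counts were 4 to 67 in females, 46 to 153 in males and 8 to 17 between the sexes with GnRH. Some differences close to 0 turned sign, and the cause was not tested. In males Abcg1 had -0.0043 with quantile scaling, -0.044 with weights and -0.0085 without animals 18 and 21, and Fdxr -0.0049 with weights. The male minus female effect of Fdx1 was -0.052 with weights and -0.019 without 18 and 21, and that of Scarb1 -1.95e-05 without them. Between the sexes, weights gave 0.014 (Abca1) and 0.029 (Abcg1) in placebo, and -0.0042 (Fdx1) and -0.0017 (Fdxr) with GnRH, while leaving out 18 and 21 gave -0.058 (Scarb1) and -0.023 (Abca1) with GnRH. Ranges without single animals that crossed 0 were -0.14 to 0.0094 for Abca1 and -0.047 to 0.034 for Abcg1 in males. For Fdxr they were -0.098 to 0.0025 in females, -0.042 to 0.057 in males and -0.046 to 0.0076 in the mean. The male minus female effect crossed 0 for Abca1 (-0.0037 to 0.16), Fdx1 (-0.053 to 0.075) and Scarb1 (-0.055 to 0.13). Between the sexes with GnRH the range crossed 0 for Abca1 (-0.027 to 0.14), Fdx1 (-0.013 to 0.11), Fdxr (-0.026 to 0.059) and Scarb1 (-0.11 to 0.075), and in placebo for Abca1 (-0.10 to 0.040), Abcg1 (-0.047 to 0.035) and Fdxr (-0.095 to 0.0037). No paired analysis was possible because the groups share no animal number. Depth is unknown, so shrinkage of low genes cannot be sized.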
